A study of Saccharomyces cerevisiae with 4 samples.

Results

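The genes described here are the 31 aminoacyl-tRNA synthetase genes of Saccharomyces cerevisiae that were taken by symbol from a list of names, 18 whose products serve the cytoplasm and 13 whose products serve mitochondria. All 31 were found among the 6002 nuclear protein-coding genes of the annotation and among the 5710 genes of at least 300 bp that were counted. Each synthetase joins 1 amino acid to its transfer RNAs, which then carry that amino acid to the ribosome. Yeast keeps separate enzymes for the cytosol and for the mitochondrial ribosome for most amino acids, all encoded in the nucleus, and for a few amino acids a single gene makes both enzymes from alternative start codons. The cytoplasmic genes are long and strongly transcribed housekeeping genes, while the mitochondrial genes are transcribed at low levels.

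Capped 5′ ends of polyadenylated RNA were mapped base by base in 2 libraries of BY4741 and in 2 libraries of set2Δ, grown to mid-log phase in rich medium (YPD) at 30 °C. BY4741 is a haploid MATa laboratory strain that carries deletions of HIS3, LEU2, URA3 and MET15, and set2Δ is the same strain with SET2 replaced by kanMX4. Set2 is the methyltransferase of lysine 36 of histone H3, a mark laid down behind elongating RNA polymerase II, and its loss is known to allow transcription to start inside coding sequences. The question addressed was how often transcription started inside these genes, and where it started at their promoters, with and without Set2. The labels do not say whether the 2 libraries of a strain came from separate cultures, so p-values measure the spread between these libraries, which may be technical.

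The libraries held 452888 and 375442 counts in BY4741 and 1267578 and 1099482 counts in set2Δ, so that the mutant was sequenced 2.86 times as deeply. In the body of SET2 itself, 7 and 2 counts were found in BY4741 against 0 and 1 in set2Δ, and its 5′ window held 13 and 11 counts in set2Δ against 24 and 11 (log2 fold change of -2.23, called lower). Of the mating type a markers measured, STE2 and BAR1 were lower inside the gene in set2Δ (log2 fold changes of -1.65 and -0.99). In the 5′ window STE2 was lower (-0.88) and BAR1 was not called (0.19). Of the alpha markers only MF(ALPHA)2 was called higher, in its 5′ window (log2 fold change of 2.19), on 1 and 1 counts in BY4741 against 19 and 12 in set2Δ. Each gene was read in 2 windows on its own strand, a 5′ window from 250 bp before the start codon through the first 200 bases of the coding sequence, and an internal window from there to the end of the gene. Levels are given as CPM, counts per 1e6 of the scaled total over all genes of the window concerned.

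At yeast promoters transcription usually starts at a purine that follows a pyrimidine. The 2 bases that span the mapped 5′ end are shown in capitals for the internal position with most set2Δ counts (RefSeq genome of build R64, 10 bases before the first transcribed base and 10 from it). They are printed as examples for the 6 mitochondrial genes called higher inside the gene and for 4 cytoplasmic genes with large internal decreases. FRS2, with a larger decrease than KRS1 (log2 fold changes of -1.33 and -1.18), is not among the 4.
MSY1, chrXVI:366251-366270, plus strand, coding base 1310: ctagtaaatTGttcagtatc
MSR1, chrVIII:285423-285442, minus strand, coding base 1339: catgtcgacCAgaaaaggaa
NAM2, chrXII:882901-882920, minus strand, coding base 1842: gtaaattttTGaagcctgac
MSD1, chrXVI:357057-357076, plus strand, coding base 1368: ctactccccTGggaagattg
MSE1, chrXV:264848-264867, plus strand, coding base 1384: gaagaagctTGgacagtttc
MSM1, chrVII:841379-841398, minus strand, coding base 1164: tatacgagaCAagagagctt
DPS1, chrXII:110077-110096, minus strand, coding base 1490: gaaaggatgAAagcccatgg
DED81, chrVIII:142135-142154, minus strand, coding base 1415: gacgttttgATgccaaacgt
GUS1, chrVII:40841-40860, plus strand, coding base 1829: cacaagttgACttggttagc
KRS1, chrIV:526890-526909, plus strand, coding base 1461: gtctatgtgAGcgtttcgag
All 10 positions lie in the single coding exon of their gene. All 6 mitochondrial positions have a pyrimidine before a purine, and none of the 4 cytoplasmic positions does. These are single positions chosen after their values were seen. The DED81 position held only 1 and 2 counts in set2Δ and 0 and 0 in BY4741. The 6 mitochondrial positions held 0 counts in both BY4741 libraries and between 3 and 8 counts in a set2Δ library, apart from the NAM2 position, which held 5 counts in set2Δ 1 and 0 in set2Δ 2. They were picked for their set2Δ counts in genes with few internal BY4741 counts, so the 0 counts in BY4741 are no separate evidence. The KRS1 position held 20 and 16 counts in BY4741 against 18 and 18 in set2Δ, and the DPS1 position held 12 and 8 counts in BY4741 against 10 and 11 in set2Δ, almost the same raw numbers at very different depths.

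Inside the genes, the cytoplasmic and the mitochondrial synthetases moved apart. Of the 18 cytoplasmic genes, 12 had fewer internal 5′ ends in set2Δ, 0 had more and 6 did not pass the test. Of the 13 mitochondrial genes, 6 had more, 0 had fewer and 7 did not pass. Among all 4698 genes tested with edgeR's quasi-likelihood test at a Benjamini-Hochberg adjusted p below 0.1, 42.7% were called, 25.0% higher and 17.6% lower in set2Δ. The median log2 fold change was -0.65 over the cytoplasmic genes, 1.52 over the mitochondrial genes and 0.14 over all genes tested. Library totals as the scaling moved the median of all genes to 0.83 and the share of calls that were higher from 58.7% to 85.3%. With them, 4 cytoplasmic genes remained called lower (DPS1, DED81, GUS1 and KRS1), 1 was called higher and 8 mitochondrial genes were called higher. Of all 4698 genes, 1937 were then called higher and 334 lower. With 1 library left out, edgeR's test called 7, 12, 7 and 0 cytoplasmic genes lower and 3, 6, 2 and 0 mitochondrial genes higher (without BY4741 1, BY4741 2, set2Δ 1 and set2Δ 2). Without set2Δ 2, 0 of the 4402 genes tested passed, while 1310 genes, 10 of them synthetase genes, had an unadjusted p below 0.05.

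**Figure D1:**
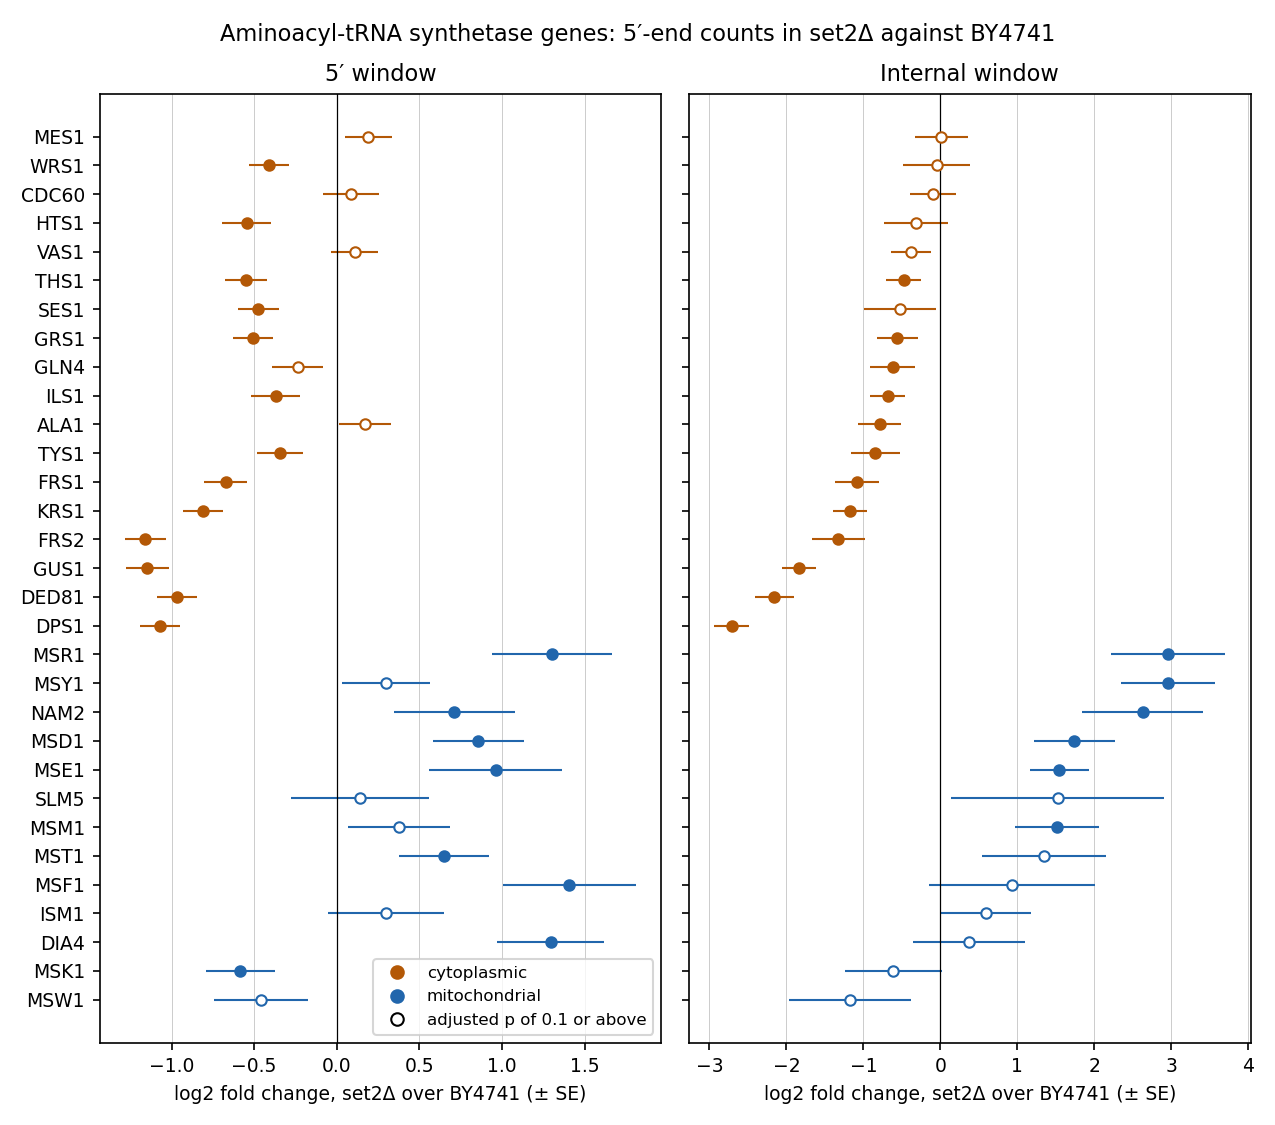
Log2 fold change of set2Δ over BY4741 with its standard error for the 31 genes (rows), in the 5′ window (left) and in the internal window (right), 2 libraries a strain. Filled points passed an adjusted p of 0.1 in edgeR's quasi-likelihood test. In the internal window the called cytoplasmic genes (orange) lie between -2.71 and -0.48 and the called mitochondrial genes (blue) between 1.52 and 2.96.

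The largest internal decrease was that of DPS1, the cytoplasmic aspartyl-tRNA synthetase gene (YLL018C, chromosome XII, 109902 to 111575, minus strand). Inside the gene there were 81 and 70 counts in BY4741 against 69 and 38 in set2Δ. Scaled, these were 1687 and 1967 CPM in BY4741 and 317 and 227 CPM in set2Δ, with both set2Δ libraries below both BY4741 libraries. The log2 fold change was -2.71 (SE 0.23) with an adjusted p of 1.28e-29 in edgeR's test. DPS1 kept this decrease when its most used internal position was left out (log2 fold change of -2.87).

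DED81, the asparaginyl-tRNA synthetase gene, followed with 55 and 38 internal counts in BY4741 against 61 and 35 in set2Δ, which scaled to 1107 ± 54.6 and 245 ± 50.0 CPM (SD, n = 2; log2 fold change -2.16, SE 0.25). GUS1, which encodes the glutamyl-tRNA synthetase, held 76 and 64 counts in BY4741 against 106 and 75 in set2Δ (1691 ± 153 and 467 ± 26.9 CPM; log2 fold change -1.84, SE 0.22). In both genes the strains did not overlap.

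FRS1 and FRS2 encode the 2 subunits of the cytoplasmic phenylalanyl-tRNA synthetase, and both were called lower. FRS2 held 21 and 14 internal counts in BY4741 against 38 and 26 in set2Δ (415 ± 31.0 and 165 ± 13.4 CPM; log2 fold change -1.33, SE 0.34). FRS1 held 27 and 24 counts in BY4741 against 67 and 44 in set2Δ (618 ± 79.4 and 285 ± 31.4 CPM; log2 fold change -1.08, SE 0.28). KRS1, the lysyl-tRNA synthetase gene, held 75 and 44 counts in BY4741 against 139 and 102 in set2Δ (1399 ± 229.8 and 624 ± 19.9 CPM; log2 fold change -1.18, SE 0.22). The other genes called lower were TYS1 (tyrosine), ALA1 (alanine), ILS1 (isoleucine), GLN4 (glutamine), GRS1 (glycine) and THS1 (threonine), with log2 fold changes from -0.85 to -0.48. Of these, GRS1 was the 1 gene whose strains overlapped. SES1 (serine), VAS1 (valine), HTS1 (histidine), CDC60 (leucine), WRS1 (tryptophan) and MES1 (methionine) lay between -0.53 and 0.01 and did not pass. In KRS1, leaving out its most used position, the one printed above, gave a log2 fold change of -0.95.

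The internal increases of the mitochondrial genes started from very few counts. MSY1, the mitochondrial tyrosyl-tRNA synthetase gene (YPL097W, chromosome XVI, 364952 to 366430, plus strand), held 2 and 1 internal counts in BY4741 against 64 and 46 in set2Δ, or 34.9 ± 9.57 and 284 ± 13.2 CPM (SD, n = 2). The ratio of the scaled sums was 7.96, with a 95% counting interval (exact binomial) from 2.65 to 39.2, and the adjusted p in edgeR's test was 1.32e-05. MSR1, the mitochondrial arginyl-tRNA synthetase gene, held 0 and 2 counts in BY4741 against 31 and 43 in set2Δ, a ratio of 8.03 (interval 2.15 to 67.6) with an adjusted p of 0.000389 in edgeR's test. Both set2Δ libraries lay above both BY4741 libraries in each gene.

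NAM2, the mitochondrial leucyl-tRNA synthetase gene (YLR382C, chromosome XII, 882067 to 884751, minus strand), is also known for a part in splicing mitochondrial introns. It held 1 and 1 internal counts in BY4741 against 32 and 27 in set2Δ, a ratio of 6.40 (interval 1.70 to 54.1). MSE1, which encodes the mitochondrial glutamyl-tRNA synthetase, held 12 and 1 counts in BY4741 against 100 and 75 in set2Δ, the highest internal counts of the mitochondrial set (log2 fold change 1.54, SE 0.38). Its BY4741 libraries stood far apart, at 250 and 28.1 CPM, and both lay below the set2Δ libraries at 459 and 448 CPM.

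MSD1, the mitochondrial aspartyl-tRNA synthetase gene and the counterpart of DPS1, held 2 and 4 internal counts in BY4741 against 45 and 48 in set2Δ (log2 fold change 1.74, SE 0.53). MSM1, for mitochondrial methionyl-tRNA, held 1 and 5 counts in BY4741 against 41 and 39 in set2Δ (log2 fold change 1.52, SE 0.55). The same amino acid was thus charged by a gene called lower and a gene called higher for aspartate (DPS1 and MSD1), glutamate (GUS1 and MSE1) and tyrosine (TYS1 and MSY1). MST1 (threonine), SLM5 (asparagine), MSF1 (phenylalanine), ISM1 (isoleucine), DIA4 (the probable mitochondrial seryl-tRNA synthetase), MSK1 (lysine) and MSW1 (tryptophan) did not pass. Their log2 fold changes ran from -1.17 for MSW1 to 1.52 for SLM5, and MSW1 and MSK1 were the only mitochondrial genes with both set2Δ libraries below both BY4741 libraries.

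**Figure D2:**
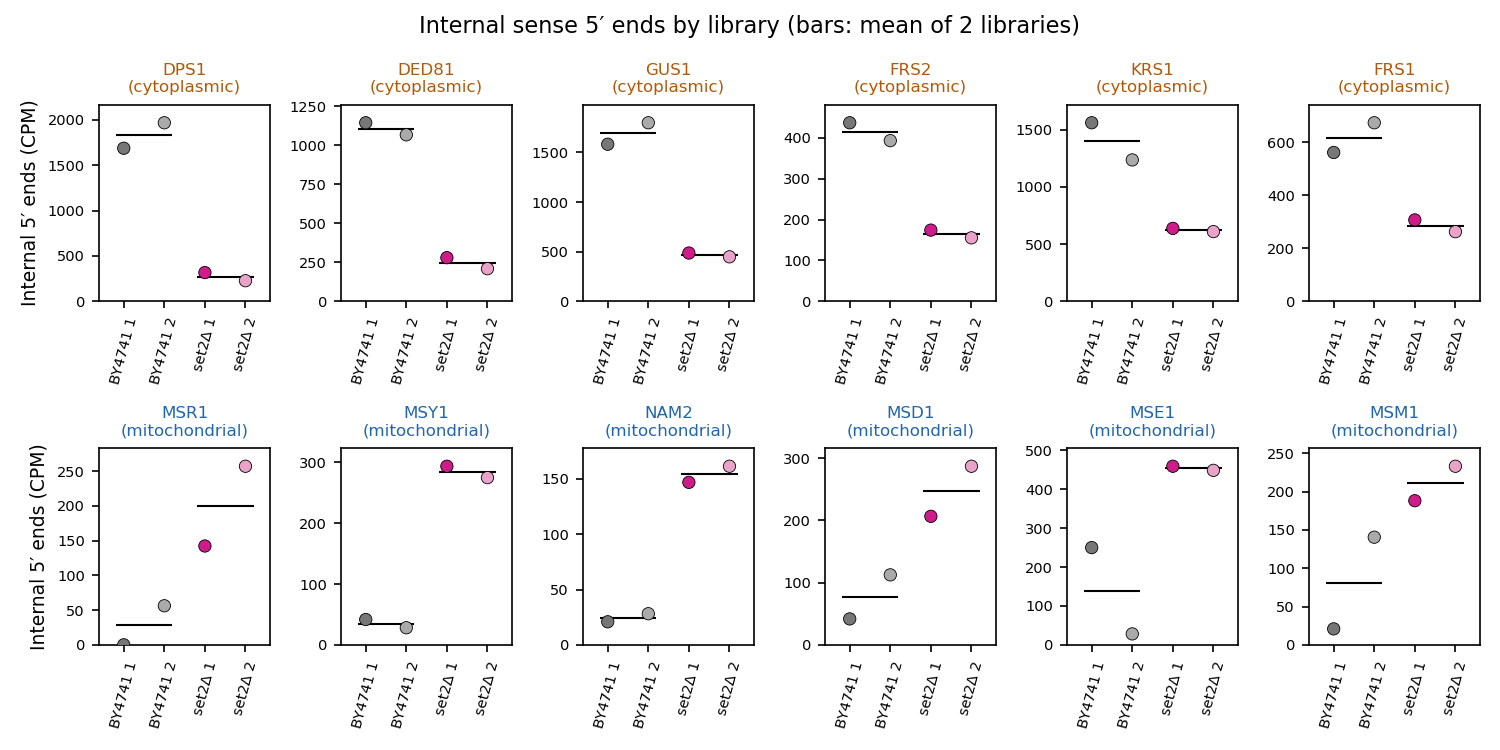
Internal sense 5′ ends of the 6 cytoplasmic genes (top) and 6 mitochondrial genes (bottom) with a call and a log2 fold change of at least 1 in size, in CPM, 1 point a library and a bar at each strain's mean. The set2Δ points lie below those of BY4741 in the top row (272 against 1827 CPM on average in DPS1) and above them in the bottom row. The genes were chosen for their calls in these same libraries, so the lack of overlap is no separate evidence.

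The bases at the internal 5′ ends differed between the 2 classes. In set2Δ, 79.1% and 78.8% of the internal counts of the mitochondrial genes lay at a purine after a pyrimidine, against 51.4% and 34.5% in BY4741 (95% Wilson intervals 35.9% to 66.6% and 19.9% to 52.7%, from 37 and 29 counts). In the cytoplasmic genes the share was 21.6% and 26.4% in set2Δ and 18.9% and 21.6% in BY4741. The dinucleotide makes up 22.8% of the bases of the mitochondrial internal windows and 22.4% of the cytoplasmic ones, so the cytoplasmic internal ends showed it about as often as the sequence itself does. Over all 5710 genes this share stood at 33.4% and 31.8% in BY4741 against 55.6% and 58.0% in set2Δ.

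Gene by gene, the share in set2Δ ran from 51.0% (ISM1) to 86.3% (MSE1) over the 13 mitochondrial genes and from 16.5% (VAS1) to 41.8% (WRS1) over the 18 cytoplasmic genes, with no overlap between the classes. In raw counts, mitochondrial internal ends at the dinucleotide went from 29 in BY4741 to 615 in set2Δ, 21.2 times as many, and those at other bases from 37 to 164, 4.43 times as many. In the cytoplasmic genes the corresponding ratios were 2.66 and 2.17. Over all genes, the scaled internal total on which the calls rest was 4.61 times as large in set2Δ, above 3 of these 4 ratios, so that on this scale, of the 4 sums, that of mitochondrial ends at the dinucleotide was the one higher in set2Δ. For the mitochondrial genes the strain difference in share was larger than the spread between libraries. An exact permutation test over 4 libraries cannot give a two-sided p below 0.333, which is the value it gave. The pattern held on the plus strand alone, where no position was moved, with 81.3% and 82.9% in the set2Δ libraries for 7 mitochondrial genes and 19.5% and 23.6% for 8 cytoplasmic genes. The classes also differ in level: the median 5′ window count in BY4741 1 was 164 for the cytoplasmic and 13 for the mitochondrial genes, and the part of level in these shares was not tested.

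**Figure D3:**
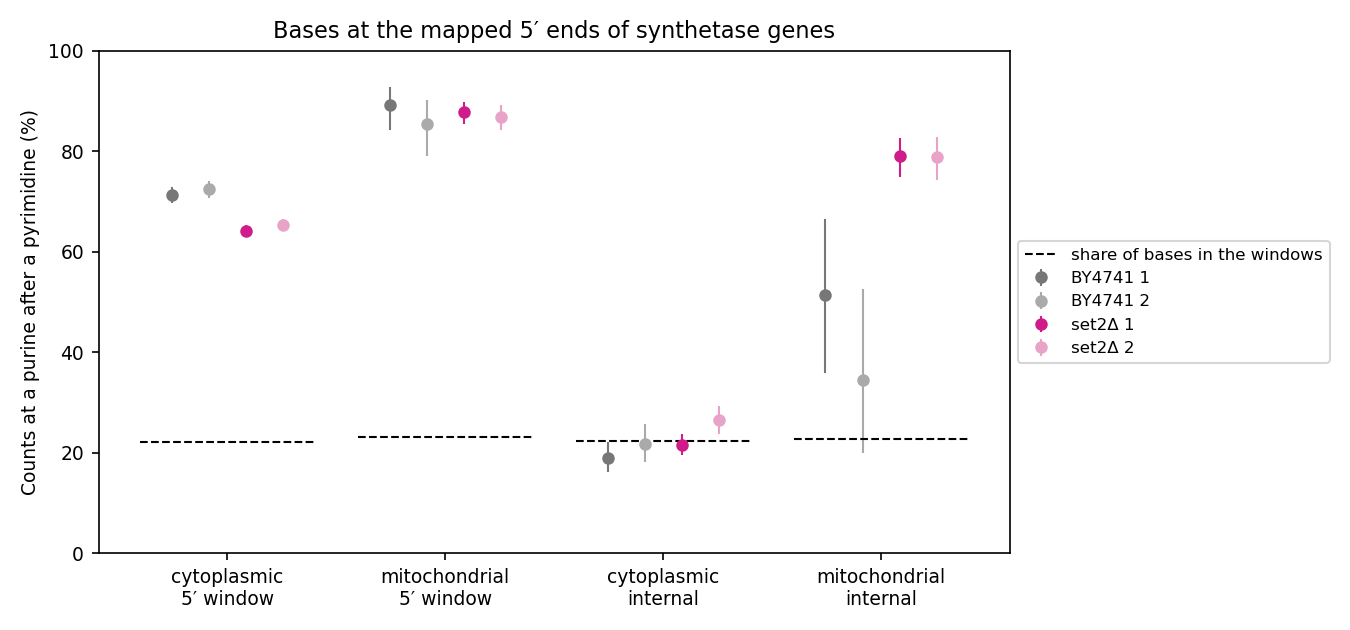
Share of counts that lay at a purine preceded by a pyrimidine, in percent, for each library (points, with 95% Wilson intervals), by class and window, with the share of bases of the windows that have this dinucleotide as a dashed line. The mitochondrial internal windows go from 51.4% and 34.5% in BY4741 to 79.1% and 78.8% in set2Δ, and the cytoplasmic internal windows stay between 18.9% and 26.4% near the dashed line.

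The internal ends of the mitochondrial genes were spread over many positions. The 110 set2Δ counts of MSY1 lay at 55 positions and the 175 of MSE1 at 77. In MSY1, 28 and 14 of the set2Δ counts lay in the first of 3 equal parts of the internal window, 7 and 2 in the middle and 29 and 30 in the last. In MSR1 the middle part held most counts, 17 and 21, and in MSE1 the last part held 62 and 47 of 100 and 75. Summed over the 13 mitochondrial genes, the last part held 42.1% and 40.7% of the internal counts in set2Δ, between the 35.1% and 51.7% of the BY4741 libraries, and over the 18 cytoplasmic genes 44.0% and 47.6%, against 52.7% and 55.0% of the cytoplasmic counts in BY4741. At most 8 counts fell at 1 internal position of a library in these 4 genes. MSM1 was the only mitochondrial gene with a position of at least 5 counts in both set2Δ libraries, the one printed above.

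**Figure D4:**
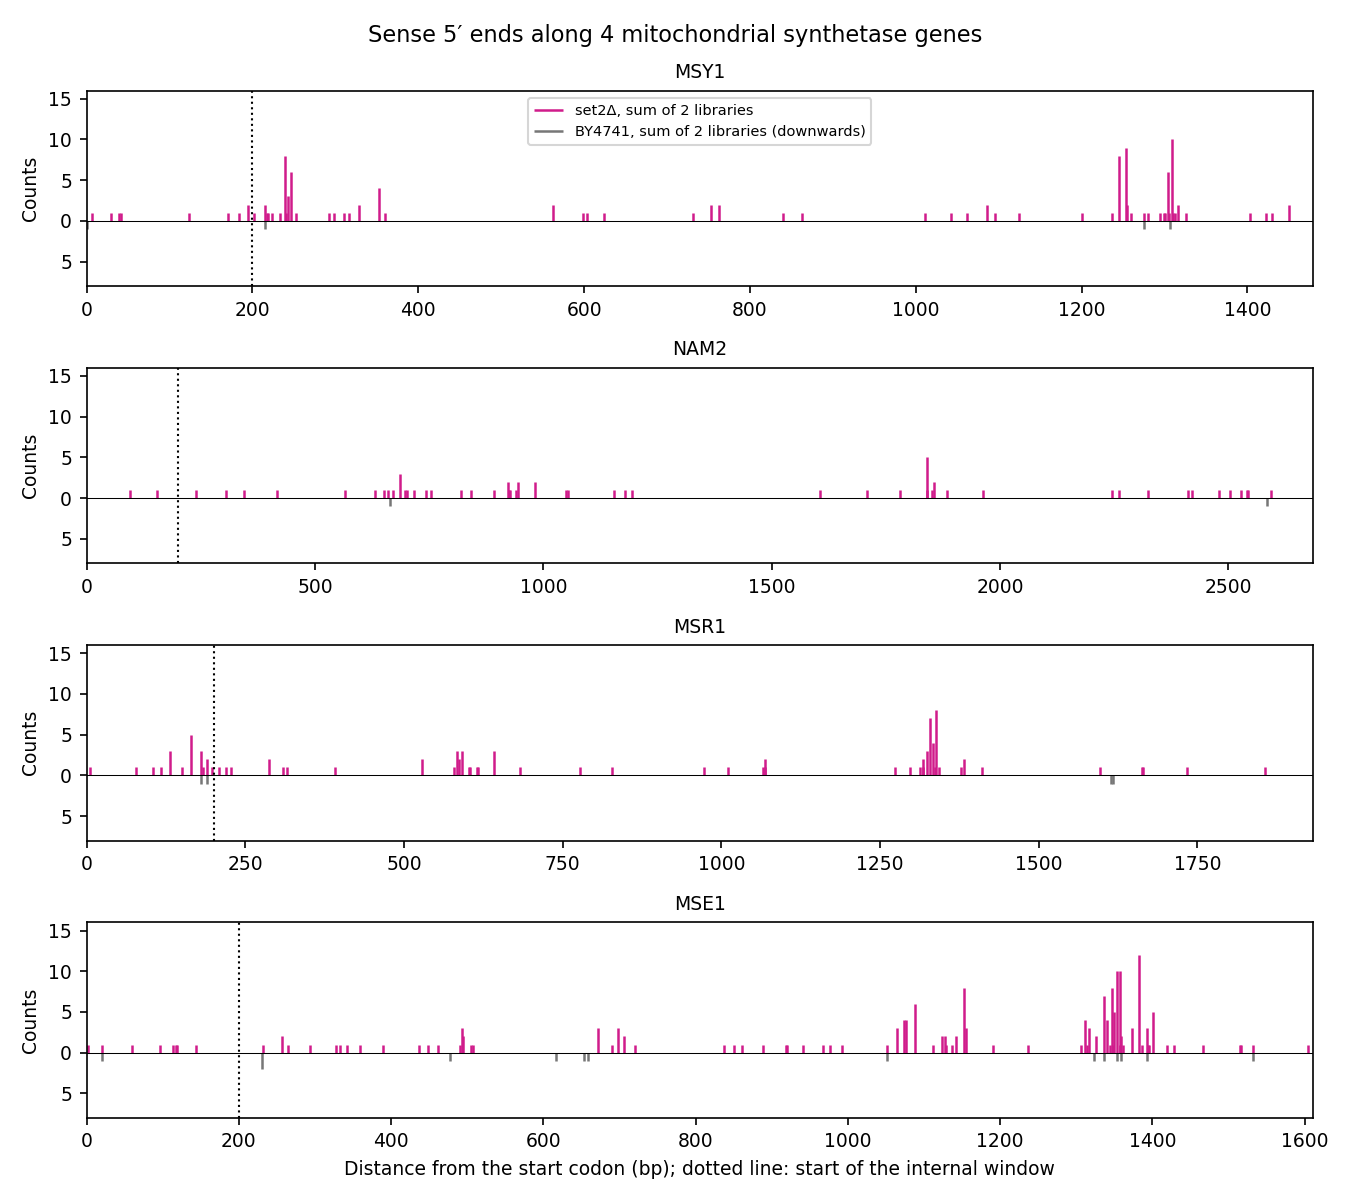
Counts at each position along the coding sequences of MSY1, NAM2, MSR1 and MSE1, with distance from the start codon in bp, the sum of the 2 set2Δ libraries upwards and of the 2 BY4741 libraries downwards. Right of the dotted line at 200 bp, where the internal window begins, the BY4741 libraries together held 3, 2, 2 and 13 counts and the set2Δ libraries 110, 59, 74 and 175.

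At the promoters, the class medians had the same signs as inside the genes, but each window was scaled on its own, so their sizes cannot be compared. With library totals, 1 scale for both windows, the cytoplasmic median was 0.04 inside the genes and -0.30 in the 5′ window. The mitochondrial median was then 2.15 inside and 0.83 in the 5′ window. Of the cytoplasmic genes 13 of 18 were called lower and 0 higher, and of the mitochondrial genes 7 of 13 were called higher and 1 lower, the lysyl-tRNA synthetase gene MSK1. Among all 5039 genes tested, 62.6% were called, 32.3% higher and 30.2% lower. The median log2 fold change was -0.49 over the cytoplasmic genes, 0.65 over the mitochondrial genes and 0.11 over all genes. The split was not kept with cyclic loess offsets, which remove a trend with the counts of the window tested. With them, 6 cytoplasmic genes were called higher and 2 lower, and 0 mitochondrial genes higher and 2 lower. The class medians were 0.00 and -0.00, and of all 5039 genes 1184 were called higher and 1151 lower. With offsets fitted to the internal counts, 11 cytoplasmic genes were called lower and 6 mitochondrial genes higher inside the gene. Of all 4698 genes, 1057 were then called higher and 913 lower. These offsets do not remove a trend with the 5′ window counts, and the part of that level in the internal split was not tested. Some high positions of the cytoplasmic genes stood near 16 counts in both strains, which may narrow the count ratio between the strains. The highest position of ILS1 held 16 and 16 counts in BY4741 against 17 and 16 in set2Δ. Others rose, as in WRS1, where the highest position held 25 and 21 counts in BY4741 against 32 and 38 in set2Δ. The cytoplasmic genes had 50 and 33 positions of at least 16 counts in BY4741 against 138 and 128 in set2Δ. With positions of 8 or more counts left out, the cytoplasmic median was -0.13, with 6 genes called lower (KRS1 not among them, at -0.46) and 1 higher, and 3 mitochondrial genes were called higher.

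FRS2 had the largest decrease in its 5′ window, with 247 and 239 counts in BY4741 against 421 and 292 in set2Δ, or 868 ± 110 and 385 ± 63.5 CPM (SD, n = 2; log2 fold change -1.16, SE 0.12). GUS1 fell from 606 ± 33.0 to 273 ± 4.57 CPM on 182 and 159 counts in BY4741 against 264 and 237 in set2Δ (log2 fold change -1.15, SE 0.13). DPS1 fell from 1537 ± 145 to 731 ± 31.7 CPM, on 448 and 414 counts and 693 and 646 counts (log2 fold change -1.07, SE 0.12). Its highest position held 19 and 19 counts in BY4741 against 24 and 22 in set2Δ. All 3 genes stayed called with positions of 8 or more counts left out, at log2 fold changes of -1.29 (FRS2), -1.40 (GUS1) and -1.18 (DPS1). The strains overlapped in none of these 3 genes. Under cyclic loess offsets FRS2 and GUS1 were the 2 cytoplasmic genes that stayed called lower.

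Among the mitochondrial genes MSF1, for phenylalanine, held 4 and 8 counts in its 5′ window in BY4741 against 51 and 53 in set2Δ (log2 fold change 1.41, SE 0.40). MSR1 held 8 and 7 counts in BY4741 against 60 and 61 in set2Δ (log2 fold change 1.30, SE 0.36), and DIA4 held 11 and 8 and then 87 and 65 (log2 fold change 1.29, SE 0.32). MSE1, MSD1, NAM2 and MST1 were also called higher, between 0.65 and 0.96. MSK1 held 41 and 36 counts in BY4741, the most of the mitochondrial set, and 90 and 77 in set2Δ (log2 fold change -0.58, SE 0.21). In MSF1, MSR1 and DIA4 both set2Δ libraries lay above both BY4741 libraries on the CPM scale, and in MSK1 both lay below.

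The change inside the gene was called different from that at the promoter in few genes, which does not show that the others lacked a difference. In a test of the interaction of window and strain, 2 of the 31 genes were called as gaining more inside than at the 5′ end and 1 as gaining less. Of all 4474 genes tested, 15.4% and 1.65% were called so. The median log2 interaction was 1.19 over the mitochondrial genes, 0.16 over the cytoplasmic genes and 0.42 over all genes tested. MSY1 was the clearest: internal ends made up 8.33% and 6.25% of its sense counts in BY4741 against 47.8% and 37.1% in set2Δ, while its 5′ window did not pass the test (22 and 15 counts against 70 and 78). The log2 interaction was 3.14 (SE 0.71) with an adjusted p of 0.00314 in edgeR's test. In NAM2 the internal share went from 9.09% and 11.1% to 37.2% and 39.1% (log2 interaction 2.39, SE 0.91, adjusted p of 0.085 in edgeR's test). In DPS1 it went the other way, from 15.3% and 14.5% to 9.06% and 5.56% (log2 interaction -1.15, SE 0.31, adjusted p of 0.0132 in edgeR's test). With any 1 library left out, 0 of the 31 genes were called by edgeR's test in this comparison, and between 3 and 7 had an unadjusted p below 0.05. With positions of 8 or more counts left out, the log2 interactions were 2.26 for MSY1, 2.28 for NAM2 and -1.65 for DPS1, and DPS1 alone of these stayed called.

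HTS1 and VAS1 are the genes in which a start position can decide which enzyme is made. Both encode the mitochondrial and the cytoplasmic form of an enzyme, for histidine and valine, from a first and a second in-frame start codon. An RNA that starts before the first codon can be read from it and can then yield the mitochondrial form. An RNA that starts between the codons can yield only the cytoplasmic form. Which codon was read was not measured, also for RNAs that start 1 bp before the first codon, which were counted as before it. The second start codon is codon 21 of HTS1 and codon 47 of VAS1, 60 and 138 bp after the first. The start codons (capitals, R64) and a much used start on either side of the first codon (capitals at the base before and at the first transcribed base) are printed here because the shift between them is the result.
HTS1 first start codon, chrXVI:639008-639028, minus strand: tcttgcttaATGcttagtaga
HTS1 second start codon, chrXVI:638948-638968, minus strand: ataatcaggATGtcatccgct
HTS1 start 1 bp before the first codon, chrXVI:639011-639030, minus strand: tctcttgctTAatgcttagt
HTS1 start 14 bp after the first base of that codon, chrXVI:638996-639015, minus strand: ttagtagatCActaaataaa
VAS1 first start codon, chrVII:672177-672197, plus strand: ttagatggtATGaataagtgg
VAS1 second start codon, chrVII:672315-672335, plus strand: ttctttaaaATGagcgatctt
VAS1 start 25 bp before the first codon, chrVII:672151-672170, plus strand: tatgtccttCAgatttatgg
VAS1 start 36 bp after the first base of that codon, chrVII:672212-672231, plus strand: taagacattCActtttcggc
All 4 starts have the pyrimidine and purine pair. The VAS1 start at -25 held 1 and 1 counts in BY4741 against 12 and 14 in set2Δ, and the start at 36 held 14 and 9 and then 16 and 16, the same total as the start at 61 (11 and 12, then 16 and 16). The HTS1 start at 14 held 16 and 15 counts in BY4741 against 16 and 16 in set2Δ, and the start at -1 held 7 and 9 and then 16 and 16.

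In both genes a larger share of the starts lay upstream of the first codon in set2Δ. VAS1 had 6 and 6 counts before the first start codon in BY4741 against 73 and 66 in set2Δ, and 104 and 65 between the codons in BY4741 against 260 and 230 in set2Δ. The share before the first codon was thus 5.45% (95% Wilson interval 2.52% to 11.4%) and 8.45% (3.93% to 17.2%) in BY4741 and 21.9% (17.8% to 26.7%) and 22.3% (17.9% to 27.4%) in set2Δ. HTS1 had 25 and 20 counts before the first codon in BY4741 against 90 and 69 in set2Δ, and 61 and 60 between the codons in BY4741 against 114 and 99 in set2Δ. Its share before the first codon was 29.1% (20.5% to 39.4%) and 25.0% (16.8% to 35.5%) in BY4741 and 44.1% (37.5% to 51.0%) and 41.1% (33.9% to 48.6%) in set2Δ. These intervals cover counting error only.

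The share between the codons was 93.0 ± 2.12% in BY4741 and 77.9 ± 0.265% in set2Δ for VAS1, and 73.0 ± 2.88% and 57.4 ± 2.15% for HTS1 (SD, n = 2), with no overlap between the strains in either gene. The exact permutation test gave its smallest possible two-sided p of 0.333. In the fit across all genes, the early coding sequence against the leader fell in 2 of the 21 genes tested, VAS1 (log2 interaction -1.97, SE 0.38, adjusted p of 0.00124 in edgeR's test) and HTS1 (-1.01, SE 0.28, adjusted p of 0.0178 in edgeR's test), against 1.15% of all 2791 genes. The most used positions between the codons had reached 16 or 17 counts in set2Δ against 12 to 16 in BY4741, less than the difference in depth. With positions of 8 or more counts in any library left out, the share between the codons was 90.0% and 72.7% in BY4741 against 65.6% and 68.4% in set2Δ for VAS1. For HTS1 it was 66.7% and 76.5% against 51.3% and 62.5%. The strains still did not overlap, but few BY4741 counts were left, and the nearest VAS1 libraries stood at 72.7% and 68.4%. Neither gene passed the test across genes (log2 interactions of -1.30 and -0.97). VAS1 stayed called without BY4741 2 (-2.27) and without set2Δ 2 (-1.96) and lost the call without either of the other libraries, and HTS1 lost it without any 1 library.

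**Figure D5:**
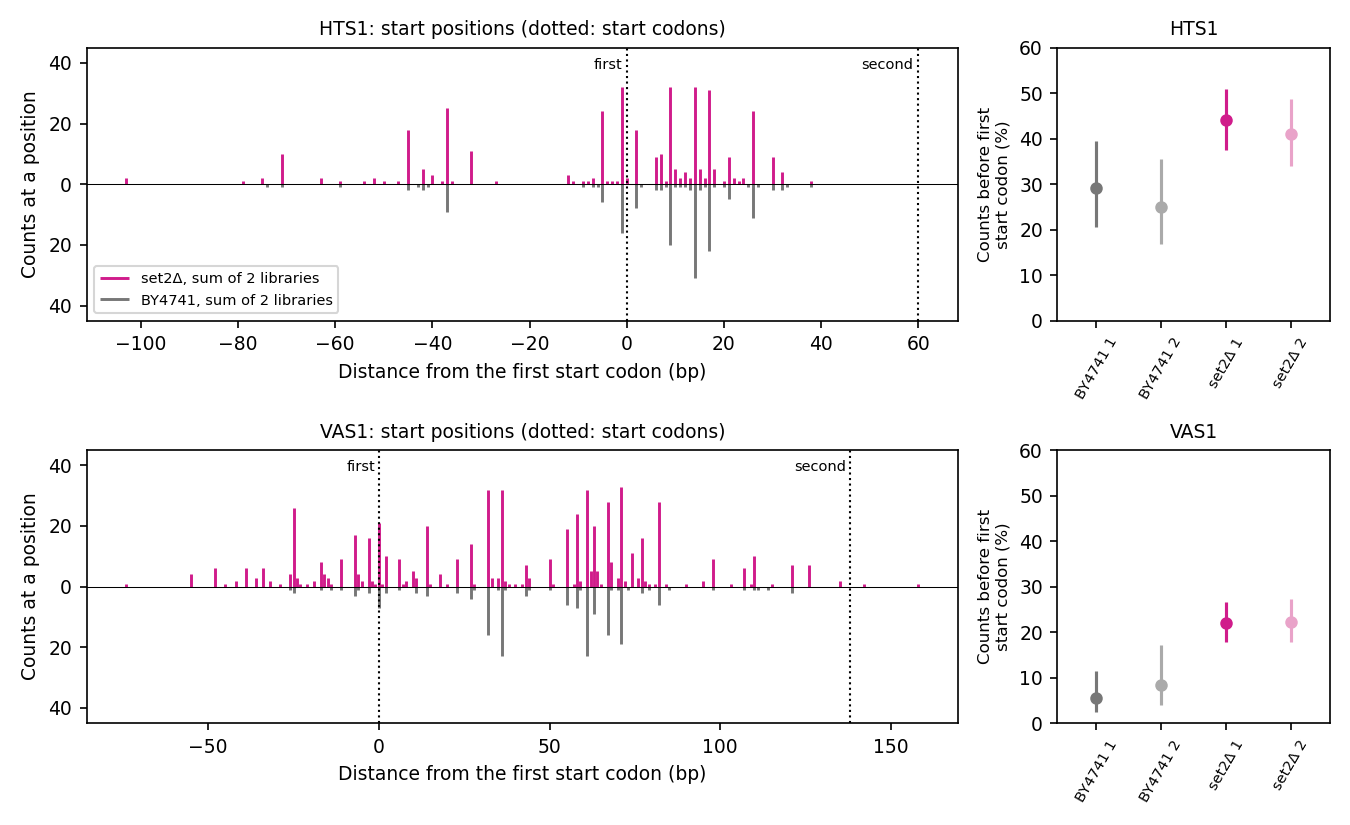
Left, counts at each start position of HTS1 and VAS1 by distance from the first start codon in bp, sums of 2 libraries, set2Δ upwards and BY4741 downwards, with both start codons dotted. Right, share of the counts up to the second start codon that lay before the first one, per library with 95% Wilson intervals, which goes from 29.1% and 25.0% to 44.1% and 41.1% in HTS1 and from 5.45% and 8.45% to 21.9% and 22.3% in VAS1.

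ALA1 and GRS1 make their mitochondrial enzyme in another way, from non-AUG codons upstream of the annotated start and in frame with it: ACG codons in ALA1, at codons -25 and -24, and a TTG codon in GRS1, at codon -23. The codons are in capitals (R64).
ALA1, first ACG, chrXV:949173-949193, minus strand: taagacaagACGacgtcaact
GRS1, TTG, chrII:483425-483445, minus strand: caagaaaaaTTGtcgttcttc
Most ALA1 starts lay upstream of the ACG codons. Between the first of them and the annotated start, 5 and 4 leader counts were found in BY4741 against 42 and 29 in set2Δ, or 7.29 ± 1.00% and 15.3 ± 0.70% of the leader counts (SD, n = 2), without overlap. In GRS1, 33.1% and 32.0% of the leader counts lay from the TTG codon onwards in BY4741 against 34.3% and 34.1% in set2Δ, a difference of 1.67 percentage points. The most used position of each gene was the same in all 4 libraries, 106 bp before the start codon in ALA1 and 67 bp before it, on the last base of the TTG codon, in GRS1. The ALA1 position held 17 and 13 counts in BY4741 against 18 and 22 in set2Δ, and its part in the ALA1 shares was not tested. The exact permutation test gave 0.333 for both genes.

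In other genes the difference had the opposite direction, towards the coding sequence. The early coding sequence gained on the leader in 8 of the 21 genes tested, against 21.1% of all genes tested. All 8 were among the 16 cytoplasmic genes tested, and only 5 mitochondrial genes could be tested. ILS1 had 1 and 1 early coding counts in BY4741 against 13 and 14 in set2Δ, or 1.12% and 1.28% and then 5.96% and 6.93% of its 5′ window. GRS1 went from 2.26% and 1.16% to 5.20% and 5.02%, WRS1 from 7.14% and 6.22% to 14.4% and 12.2%, and SES1 from 2.52% and 2.49% to 7.12% and 5.93%. DPS1, THS1, DED81 and GLN4 were the others called, and GLN4 had 0 and 0 early coding counts in BY4741 against 8 and 5 in set2Δ. With positions of 8 or more counts left out, edgeR's test called 0 of the 31 genes (1 at an unadjusted p below 0.05), and with 1 library left out at most 1 gene was called higher.

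In 15 of the 31 genes 1 position was the most used of the 5′ window, or tied for it, in all 4 libraries. In the other 16 it differed among libraries. Ties within a library were settled by the sum over all 4 libraries, which favours the same position. In HTS1, 1 of the 15, the starts at -1 and 14 both held 16 counts in each set2Δ library. In MSR1, another, the position held only 2 and 3 counts in BY4741. The share over all genes was not computed. The strain means of the median start differed by more than 10 bp in 4 genes, VAS1, MSR1, MSE1 and DIA4. Each mean lay further upstream in set2Δ, though in MSE1 the strains overlapped. How many of all genes differ by as much was not computed. In DIA4 it lay 16 and 21 bp before the start codon in BY4741 and 52 bp before it in both set2Δ libraries, on 11 and 8 and then 87 and 65 counts. In MSR1 it lay at -27 in both BY4741 libraries, on only 8 and 7 counts, and at -41 in both set2Δ libraries. In MSE1 the BY4741 libraries stood at -58 and -13, on 11 and 3 counts, and -58 was also the value of both set2Δ libraries.

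Antisense 5′ ends inside the genes were rare and were seen mostly in the mitochondrial genes. The 18 cytoplasmic genes together held 1 and 1 antisense counts in BY4741 against 9 and 10 in set2Δ, and 0 of them reached the minimum of 10 counts. The 13 mitochondrial genes held 7 and 2 counts in BY4741 against 98 and 66 in set2Δ. Of these, 5 could be tested and 0 were called by edgeR's quasi-likelihood test, against 16.9% of all 1480 genes called higher and 4.46% lower, while 2 had an unadjusted p below 0.05. DESeq2 also called 0 of the 5. MSR1 had the most antisense counts, 4 and 0 in BY4741 against 29 and 26 in set2Δ (log2 fold change 1.33, SE 0.72). MSE1 held 1 and 0 and then 15 and 10 counts. NAM2 held 0 and 0 and then 9 and 7, and ISM1 0 and 0 and then 13 and 2, for which no fold is given, since the lower bound set by 3 counts in BY4741 is below 1. With library totals as the scaling, 4 mitochondrial genes were called higher, but so were 808 of all 1480 genes.

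Genes around the synthetases in translation were read from lists in the same fits. Of 10 cytoplasmic elongation factor genes tested in the 5′ window, 10 were called lower, against 30.2% of all genes, with a median log2 fold change of -1.13 (10 lower and -1.19 with positions of 8 or more counts left out). Inside the gene 7 of 10 were called lower, against 17.6% of all genes, and 1, HEF3, higher (log2 fold change 1.66). HEF3 encodes a second form of elongation factor 3 that is little used in vegetative growth, and its 5′ window held 0 counts in every library and was not tested. It held 10 and 11 internal counts in BY4741 against 170 and 136 in set2Δ. Reads that match near-identical copies, such as TEF1 and TEF2 or EFT1 and EFT2, were left out by the authors, so the values of such genes are uncertain.

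Of 6 mitochondrial translation factor genes, 4 were called higher and 2 lower in the 5′ window, and 2 higher and 1 lower inside the gene, that is 6 of 6 and 3 of 6 called against 62.6% and 42.7% of all genes. The initiation factor gene IFM1 held 2 and 0 internal counts in BY4741 against 38 and 43 in set2Δ, and the elongation factor gene MEF1 held 4 and 0 and then 53 and 46. The gene of mitochondrial elongation factor Tu, TUF1, was lower in both windows (log2 fold changes of -1.27 inside and -0.81 in the 5′ window), and MRF1, for a release factor, was lower in the 5′ window (-0.41). ARC1, whose product binds the glutamyl- and methionyl-tRNA synthetases, was lower in both windows as well (-1.18 and -0.64). Of the 5 synthetase partner genes, PET112, a subunit of the mitochondrial glutamyl-tRNA amidotransferase, was called higher inside the gene, with 0 and 0 counts in BY4741 against 15 and 10 in set2Δ, and PET112 and HER2 were called higher in the 5′ window.

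Of the other 5 synthetase genes, 2 were called higher and 2 lower in each window, against 25.0% and 17.6% of all genes inside and 32.3% and 30.2% in the 5′ window. EdgeR's test called 0 of the 5 in the 5′ window with positions of 8 or more counts left out (2 at an unadjusted p below 0.05). The cytoplasmic genes YDR341C (arginine) and YHR020W (proline) were called lower inside the gene (-0.81 and -0.88) and in the 5′ window (-0.68 and -0.64). AIM10, for a mitochondrial prolyl-tRNA synthetase, and GRS2, a second glycyl-tRNA synthetase gene little used in rich medium, were called higher inside the gene. CRS1, the cysteinyl-tRNA synthetase gene, was called higher in the 5′ window (62 and 36 counts in BY4741 against 227 and 188 in set2Δ, log2 fold change 0.38), as was AIM10 (0.91). GRS2 held 5 and 3 internal counts in BY4741 against 76 and 73 in set2Δ (log2 fold change 2.01), while its 5′ window was not called (22 and 18 against 55 and 46 counts).

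Of the 4 general amino acid control genes, 1 was called higher and 1 lower in each window. Of all genes 25.0% and 17.6% were called so inside, and 32.3% and 30.2% in the 5′ window. GCN2, the kinase that senses uncharged transfer RNA, was higher in both windows (log2 fold changes of 1.05 inside and 1.86 in the 5′ window). Its 5′ window held 4 and 1 counts in BY4741 against 38 and 22 in set2Δ. GCN20 was lower in both (-1.10 and -0.56). GCN4, the activator of amino acid synthesis genes, was not called in either window. Its binding motif TGACTCA, searched on both strands of the 500 bases before the start codon, was found in 1 of the 31 genes (3.23%) and in 4.06% of all 5710 genes. The 1 gene was DED81, where the motif (capitals) starts 261 bp before the start codon.
DED81, motif at chrVIII:143813-143819, minus strand: agacattcagTGACTCAagcatcgctt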

How the data were processed

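Libraries of capped 5′ ends were made by the authors from total RNA with a ligated oligonucleotide that carried a random molecular barcode, poly(A) selection and paired-end sequencing. The deposited files hold raw counts of mapped 5′ ends for every genomic base and strand. Per the labels, CASAVA 1.8.2 and Novoalign were used with build R64 (sacCer3), and the methods state that reads with several alignments were left out. Whether reads of the same barcode were collapsed is not given in the sources used here. Minus-strand positions were moved by 42 bp, after which 77.0% to 78.8% of positions with at least 5 counts had a purine after a pyrimidine (23.4% to 23.8% as listed; plus strand 80.8% to 85.0%).

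Gene positions and sequences came from the RefSeq annotation and genome of R64, whose chromosome lengths equal those of the files. Counts were summed from 250 bp before the start codon through the first 200 bases (5′ window), from there to the gene end (internal), and, for antisense ends, opposite the internal window wherever no other gene's 5′ window lay. Positions claimed by 2 genes of 1 strand were left out. Every 42-base stretch of the members' windows was unique in the genome. Genes of at least 300 bp were kept where the 4 libraries summed to 10 counts or more and fitted with edgeR 4.0.16 (R 4.3.3, quasi-likelihood test, TMM) at a threshold of 0.1 on the p adjusted by Benjamini-Hochberg, with strain as the only term. Differences between windows were fitted as an interaction with library as a factor. Shares were compared with exact permutation tests in scipy 1.17.1. Scripts were tested on simulated data. The alternatives were DESeq2 1.42.0, DESeq2 size factors, library totals, cyclic loess offsets (limma 3.58.1), no filter, an adjusted p of 0.05, other window limits, distinct positions, the highest position left out, unmoved minus-strand positions, a replicate block and each library left out. Leaving out positions of 8 or more counts was added after seeing the data.

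The genes, the lists and the tests were chosen with earlier results of these data known. Values per library are given for members called with a log2 fold change of at least 1 in size, members called in a difference between windows and the 4 genes with a mitochondrial and a cytoplasmic product; of the other lists, genes called are named, and GCN4 for its motif, and the 10 internal positions printed were chosen after their values were seen. Lack of overlap between the strains in genes chosen for their calls is no separate evidence, and its share over all genes was not computed. Of the mating type a markers, MFA1, MFA2 and AGA2 are shorter than the minimum length.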

Additional observations from a re-analysis of the deposited data

How the results depend on the processing

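Single genes kept direction and call in 455 of 524 values inside the gene, 417 of 496 in the 5′ window, 55 of 61 for antisense ends, 307 of 338 for internal against 5′ windows and 131 of 198 for early coding sequence against leader. Internal 5′ ends: with library totals as the scaling 4 cytoplasmic genes were called lower and 1 higher, and GLN4 (0.066), GRS1 (0.13), ILS1 (0.0092) and THS1 (0.20) changed sign. DESeq2 called 7 cytoplasmic genes lower, 3 mitochondrial genes higher and 1070 of all genes (2004 with edgeR). With 1 library left out, GRS1 ran from -0.96 to 0.0015, its value without BY4741 replicate 1. With 1 library left out, 0 to 12 cytoplasmic genes were called lower, 0 to 6 mitochondrial genes higher and 0 to 1613 of all genes.

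5′ windows: with cyclic loess offsets 6 cytoplasmic genes were called higher and 2 lower, and 0 mitochondrial genes higher and 2 lower. There GRS1 (0.52), SES1 (0.28), THS1 (0.076), TYS1 (0.022), WRS1 (0.38) and NAM2 (-0.0048) changed sign. Library totals gave 3 cytoplasmic genes higher, and 2128 of all 5039 genes. With positions of 8 or more counts left out, 1 cytoplasmic gene was called higher and 6 lower, 3 mitochondrial genes higher and 2040 of all genes (3152 before), and SES1 (0.38) and THS1 (0.17) changed sign. DESeq2 called 3 mitochondrial genes higher, 0 lower and 1881 of all genes. Distinct positions gave 7 cytoplasmic genes lower, 2 mitochondrial genes higher, 0 lower and 1049 of all genes. Without the highest position 4 mitochondrial genes were called higher. With 1 library left out, 4 to 6 mitochondrial genes were called higher, 1 lower, 11 to 13 cytoplasmic genes lower and 2445 to 2707 of all genes.

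Antisense: library totals gave 4 genes higher and distinct positions 1. Of all genes, 316 were called with edgeR, 112 with DESeq2, 184 at an adjusted p of 0.05 and 838 with library totals. With 1 library left out, 0 to 1 synthetase genes and 85 to 132 of all genes were called.

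Internal against 5′ window (2 higher, 1 lower, 761 of all genes): 1 gene was called higher at an adjusted p of 0.05, without the highest position or without the filter, 10 with distinct positions, and 0 higher and 5 lower with positions of 8 or more counts left out, where GLN4 (-1.27) and VAS1 (-1.17) changed sign. Of all genes, 491 were called without the highest position, 467 without positions of 8 or more counts and 0 to 219 with 1 library left out, when 0 synthetase genes were called.

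Early coding sequence against leader (8 higher, 2 lower, 622 of all genes): 5 were called higher at an adjusted p of 0.05, 4 with distinct positions, without the highest position or with minus-strand positions as listed, and 3 without the filter. Without positions of 8 or more counts, 0 were called in either direction. Distinct positions gave 0 lower and unmoved minus-strand positions 5 lower, with DED81 (-0.12), DPS1 (-0.30), ILS1 (-1.20) and WRS1 (-1.23) changing sign. Of all genes, 381 were called at an adjusted p of 0.05, 217 with distinct positions, 262 without the filter, 40 without positions of 8 or more counts and 0 to 210 with 1 library left out, when 0 to 1 synthetase genes were called in each direction. The difference in the share between the start codons was -15.6 percentage points in HTS1 and -8.13 with minus-strand positions as listed, and -15.2 in VAS1 and -11.0 with distinct positions. The causes of these changes were not tested.

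Among all genes, calls that were higher made up 58.7% inside the gene (85.3% with library totals), 51.7% in the 5′ window (64.4% with library totals, 36.7% with DESeq2, 37.1% with distinct positions) and 79.1% for antisense ends (96.4% with library totals, 65.2% with DESeq2). The median of all genes moved from 0.14 to 0.83, from 0.11 to 0.29 and from 1.21 to 2.09 with library totals.

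Replicate numbers did not pair the libraries: deviations of equal-numbered libraries correlated at -0.06, -0.07 and 0.05 across genes in the 3 windows. With a replicate block, 9 cytoplasmic genes were called lower and 6 mitochondrial genes higher inside the gene, and 147 of all genes for antisense ends. Depth limits the mitochondrial genes most, whose internal windows held 37 and 29 counts in BY4741.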
